A study of Mus musculus with 6 samples.

Results

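The 959 sites described here were open chromatin in both mouse cell lines that express *Pax6* and had no peak in the line that does not. ATAC-seq peaks of the 3 cell lines on chromosomes 1 to 19 were merged wherever they shared at least 1 bp, which gave 34742 union intervals. An interval was kept when it held a Pax6-HIGH peak and a Pax6-ON peak and no Pax6-OFF peak, so the sites were chosen by the presence of peaks. They made up 2.76% of all intervals, 3.54% of the 27127 intervals with a Pax6-HIGH peak and 10.2% of the 9357 with a Pax6-ON peak. The Pax6-HIGH line is Beta-TC3, an insulinoma line derived from pancreatic beta cells. Pax6-ON is MV+, a line from lens epithelium, and Pax6-OFF is RAG, a renal adenocarcinoma line. All 3 are immortalized lines grown untreated in the same medium, each was assayed in duplicate, and the deposited calls pool both replicates of a line, so no value below has a replicate error. Nuclei of Pax6-ON cells were released with 0.2% NP40 and those of the others with 0.1% NP40, so the lysis step and the line cannot be told apart.

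In ATAC-seq, the Tn5 transposase inserts adapters where DNA is not wrapped or crowded, so fragments pile up at active promoters, enhancers and insulators. Promoters of genes used by every cell tend to be open in every line, whereas enhancers tend to be open in few cell types. *Pax6* encodes a paired-domain and homeodomain transcription factor needed for eye, brain and pancreatic islet development. It is transcribed from several promoters and is controlled by enhancers upstream of, within and downstream of the gene.

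Promoter peaks at cell type markers did not set the lines apart. Of 7 beta cell marker genes, Pax6-HIGH cells had a peak within 1000 bp of a start site of *Nkx6-1*, which was open in Pax6-ON cells too, and of *Mafa*, which was open in all 3 lines, and none at *Ins1*, *Ins2*, *Iapp*, *Pdx1* or *Slc2a2*. Of 6 lens epithelium markers, Pax6-ON cells had one at *Prox1*, which was open in Pax6-HIGH cells too, and none at *Foxe3*, *Cryab*, *Six3*, *Gja1* or *Pitx3*. Of the kidney markers, Pax6-OFF cells alone had one at *Cdh16*, and had none at *Pax8* or *Lhx1*. Peaks at *Cryab* and *Pitx3* were called in Pax6-OFF cells. An open promoter does not measure expression. The call of Pax6-HIGH cells listed 28024 peaks from 100254099 fragments, that of Pax6-ON cells 9821 from 130955836 and that of Pax6-OFF cells 14022 from 102223606.

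The sequences that carry the main results are shown first, as the 120 bp of the plus strand of mm9 around the Pax6-HIGH summit of each site. Capitals mark matches to the searched motif letters on either strand, and a match is a description, not a bound site. Of the *Pax6* sites, 2 of 3 are shown because the lines were compared by *Pax6*, and the others because they had high fold enrichment in both lines or lay at islet or neuronal genes.
Pax6 upstream (chr2:105444930-105445049): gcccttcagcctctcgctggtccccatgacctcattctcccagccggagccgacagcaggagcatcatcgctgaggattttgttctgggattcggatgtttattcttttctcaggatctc
Pax6 intragenic (chr2:105520749-105520868): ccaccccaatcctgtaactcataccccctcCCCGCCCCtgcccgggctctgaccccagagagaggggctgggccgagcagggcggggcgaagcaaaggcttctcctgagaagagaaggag
Nkx6-1 promoter (chr5:102094343-102094462): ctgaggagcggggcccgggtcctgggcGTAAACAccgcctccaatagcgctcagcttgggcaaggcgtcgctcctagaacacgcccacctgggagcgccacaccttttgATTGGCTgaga
Isl1 promoter (chr13:117099917-117100036): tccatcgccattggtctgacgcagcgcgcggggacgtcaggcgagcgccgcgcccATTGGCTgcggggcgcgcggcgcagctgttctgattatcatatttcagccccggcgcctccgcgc
Pcsk2 promoter (chr2:143371757-143371876): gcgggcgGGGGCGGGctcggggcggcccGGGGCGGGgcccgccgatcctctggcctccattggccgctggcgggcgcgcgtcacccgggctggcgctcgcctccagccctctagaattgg
Iapp upstream (chr6:142238153-142238272): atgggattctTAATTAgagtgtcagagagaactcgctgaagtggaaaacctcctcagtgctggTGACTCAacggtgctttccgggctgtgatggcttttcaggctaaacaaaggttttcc
Elavl2 promoter (chr4:91043198-91043317): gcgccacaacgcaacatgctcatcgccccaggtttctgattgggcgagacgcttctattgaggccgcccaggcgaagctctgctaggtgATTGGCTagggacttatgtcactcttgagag
Syt1 promoter (chr10:108448094-108448213): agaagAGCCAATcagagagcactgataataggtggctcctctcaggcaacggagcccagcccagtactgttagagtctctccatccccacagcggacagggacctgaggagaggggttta
Mtap2 intron (chr1:66291628-66291747): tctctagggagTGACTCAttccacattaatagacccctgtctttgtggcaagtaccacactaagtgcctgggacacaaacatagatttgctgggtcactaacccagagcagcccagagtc
Mef2c downstream (chr13:83884642-83884761): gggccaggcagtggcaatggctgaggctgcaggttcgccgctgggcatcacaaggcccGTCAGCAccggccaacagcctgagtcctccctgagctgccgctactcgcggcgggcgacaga
Fam92a upstream (chr4:12833914-12834033): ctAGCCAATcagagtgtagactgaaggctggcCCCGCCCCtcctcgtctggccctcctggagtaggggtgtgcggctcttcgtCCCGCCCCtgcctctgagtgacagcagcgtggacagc
Plcb4 promoter (chr2:135814363-135814482): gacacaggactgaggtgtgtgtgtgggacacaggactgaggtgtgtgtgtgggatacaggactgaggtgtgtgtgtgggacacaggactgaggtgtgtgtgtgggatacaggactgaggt
The capitals are a homeodomain core (TAATTA) and an AP-1 site (TGANTCA) at the *Iapp* site, an AP-1 site at *Mtap2*, a forkhead and an NF-Y match at *Nkx6-1*, NF-Y boxes at *Isl1*, *Elavl2* and *Syt1*, SP/KLF boxes at *Pcsk2* and the intragenic *Pax6* site, a MAF motif at *Mef2c*, and NF-Y and SP/KLF boxes at the *Fam92a* site. No searched motif lay in the shown bases of the upstream *Pax6* or the *Plcb4* site. The *Plcb4* sequence is a tandem repeat. Shifted by 26 bp, 87.6% of the bases in its 300 bp window matched themselves. 

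About as many of the shared sites were at promoters as away from them. A site was counted at a promoter when it reached within 1000 bp of a start site of a protein-coding gene, which held for 487 of 959 sites (50.8%, 95% Wilson confidence interval 47.6% to 53.9%). The promoter share was lower than at intervals held by Pax6-HIGH and Pax6-OFF cells without Pax6-ON (68.5% of 4478) and at intervals held by all 3 lines (76.1% of 4341). It was higher than at intervals held by Pax6-ON and Pax6-OFF cells without Pax6-HIGH (15.5% of 910), and higher than at intervals of a single line (16.7% for Pax6-HIGH, 9.85% for Pax6-ON and 19.4% for Pax6-OFF). Position relative to start sites was not used to choose the sites, and each of the 6 differences passed Fisher's exact test.

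Against the Pax6-HIGH and Pax6-OFF class the difference was -17.7 percentage points (95% Newcombe interval -21.1 to -14.3, adjusted p = 1.24e-24, Fisher's exact test, two-sided, Benjamini-Hochberg over 6 classes). Against all 3 lines it was -25.3 points (-28.7 to -21.9, adjusted p = 9.80e-52, Fisher's exact test). Against the Pax6-ON and Pax6-OFF class it was 35.3 points (31.3 to 39.1, adjusted p = 9.46e-61, Fisher's exact test). These tests count intervals, which are not replicates of a cell line, and neighboring intervals are not independent. When each line was cut to the number of peaks of the line with fewest, the rule gave 610 sites with a promoter share of 69.7%. Of these, 465 overlapped one of the 959 and 145 did not.

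**Figure D1:**
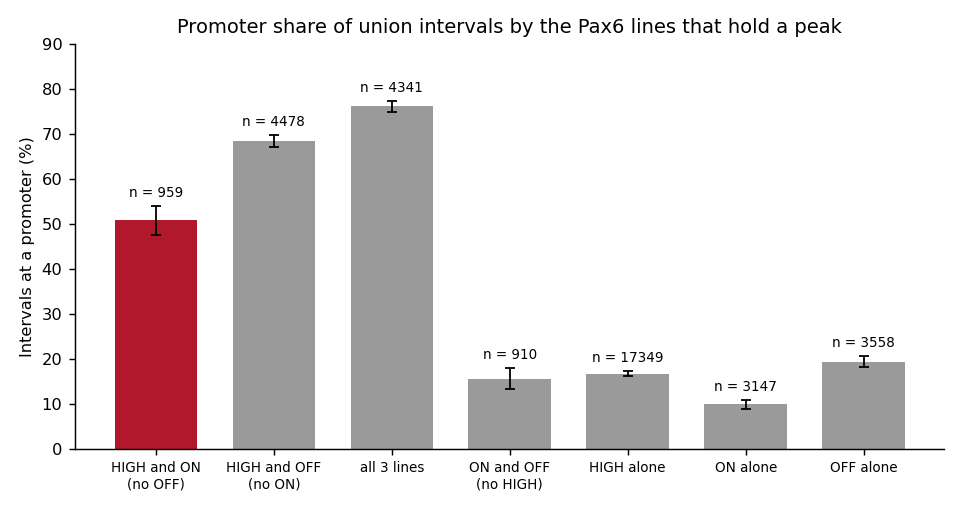
Share of union intervals (percent, vertical axis) that reach within 1000 bp of a coding start site, for each combination of cell lines with a peak. Bars are single shares with 95% Wilson intervals and n is the number of intervals; the 959 shared sites (red, 50.8%) lie between the classes that combine Pax6-HIGH with Pax6-OFF (68.5% and 76.1%) and the other classes (9.85% to 19.4%).

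Of the 5300 intervals open in both *Pax6*-expressing lines, 18.1% lacked a Pax6-OFF peak (95% Wilson interval 17.1% to 19.2%). Away from promoters the share was 31.3% of 1509, and at promoters 12.8% of 3791. Promoter sites were centered close to their start site, at a median of 100 bp. The other sites lay at a median of 43093 bp from the nearest coding start site, with 124 of 472 beyond 100 kb. By their centers, 308 of these were intergenic, 153 in introns and 11 in exons of coding genes. The intron share of sites away from promoters was 32.4%, beside 37.3% over all such intervals.

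**Figure D2:**
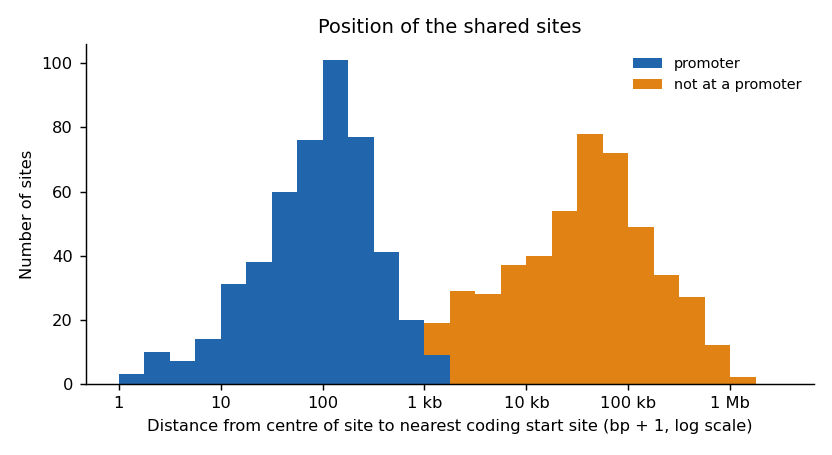
Number of shared sites (vertical axis) by the distance from the center of the site to the nearest coding start site (bp plus 1, log scale), with promoter sites in blue and the others stacked in orange. Promoter sites have a median of 100 bp and the others of 43093 bp, with few sites in the range between.

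Peak strength chose the sites through the calling threshold, so it is given as a description. Fold enrichment sets the fragments at the summit over the background around the peak in the same line. In Pax6-HIGH cells it had a median of 4.30 and ran from 1.35 to 17.4, and in Pax6-ON cells it had a median of 3.69 and ran from 1.56 to 12.3. The value was higher in Pax6-HIGH cells at 533 sites and in Pax6-ON cells at 426. Promoter sites were stronger than the others in Pax6-HIGH cells, with medians of 4.81 and 3.60, and closer in Pax6-ON cells, with 3.89 and 3.56. Across the 959 sites the Spearman correlation of both fold enrichments was 0.39, a description over sites that share base composition and annotation. At 142 sites, 85 of them promoters, fold enrichment was above 5 in both lines.

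**Figure D3:**
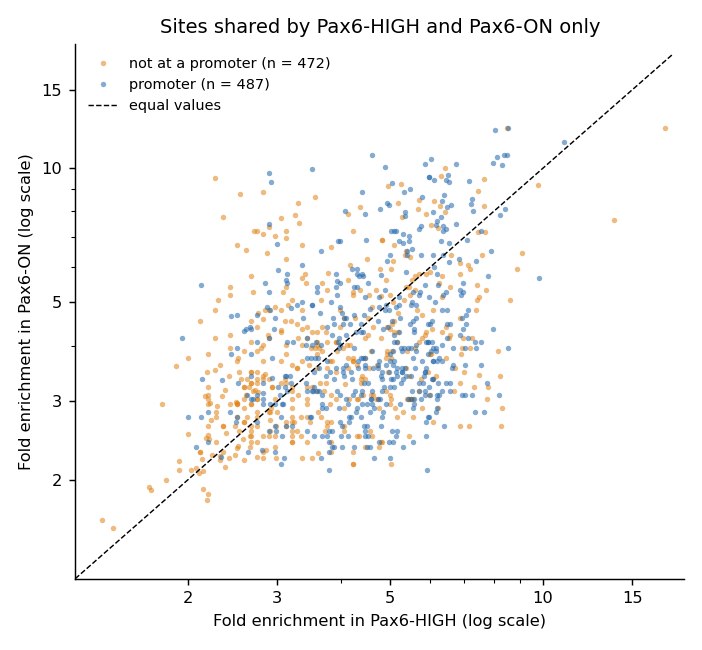
Fold enrichment of each shared site in Pax6-HIGH cells (horizontal axis) and Pax6-ON cells (vertical axis), both on log scales, with promoter sites in blue, other sites in orange and a dashed line at equal values. Each point is a single pooled call without error. The cloud is broad (Spearman 0.39), with 533 sites below and 426 above the line.

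Of the 959 sites, 951 held exactly 1 peak of each line. When the peaks had to overlap by 50% of both, 607 sites were left. The summits lay a median of 54 bp apart, and 457 pairs (47.7%) within 50 bp. Peaks were longer in Pax6-HIGH cells, with a median of 641 bp against 393 bp in Pax6-ON cells. The nearest Pax6-OFF peak was a median of 78725 bp away, and 21 sites had one within 1000 bp. The closest was 105 bp from a site near *Bach2*, followed by 178 bp near *Gpc6* and 254 bp near *Akirin2*. The weakest call among the sites, near *Tcf7l1*, had a −log10 q-value of 1.53 in Pax6-HIGH cells and 17.4 in Pax6-ON cells. Just outside the rule, an interval near *Phtf1* had fold enrichments of 6.41 and 3.16 in the expressing lines and a Pax6-OFF peak of 2.19. An interval near *Slc16a14* was left out for an overlap of 15 bp with a Pax6-OFF peak of fold enrichment 2.41.

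*Pax6* itself had 3 shared sites on chromosome 2. One lay 64039 bp upstream of the nearest *Pax6* start site, at 105444859 to 105445170. The others were at the gene, at 105515016 to 105515896, and at 105520427 to 105520991, 685 bp downstream of the nearest start site. Summit pileups were 49, 175 and 51 fragments in Pax6-HIGH cells and 52, 74 and 56 in Pax6-ON cells, without scaling for depth. Only the last of the 3 held a searched motif in its 300 bp window, the SP/KLF box shown above. The nearest Pax6-OFF peak was 204931, 228447 and 223352 bp away.

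The sites were nearest to 842 protein-coding genes, 3.93% of the 21418 with a start site on these chromosomes, and promoter sites to 479 genes (2.24%). A site is assigned to the gene with the nearest start site, which need not be the gene it acts on. Of these genes, 91 had at least 2 sites and 16 at least 3. At 458 of the 487 promoter sites, no start site of the nearest gene had a Pax6-OFF peak and both expressing lines had one, and at 23 the gene had another start site with a Pax6-OFF peak. At the remaining 6, only Pax6-HIGH cells had a peak at a start site of the nearest gene. The rule chose sites by these same peaks, so the count of 458 largely follows from it and is no result about the genes. Of the 472 other sites, 54 (11.4%) were nearest to a gene whose promoters were likewise open in both expressing lines and not in Pax6-OFF cells, beside 7.89% of all intervals away from promoters. For 114 (24.2%) the promoter of the nearest gene was open in all 3 lines, and for 185 (39.2%) in none.

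Neuronal genes were the most frequent of the lists. Of 96 matched neuronal genes, 22 (22.9%) were nearest to a shared site, beside 3.93% of all coding genes, and 14 of them had one at a promoter. These genes held 34 of the 959 sites (3.55%), beside 2.14% of all intervals, 3.01% of intervals of Pax6-HIGH cells alone, 2.42% of those of Pax6-ON cells alone and 2.198% of those of Pax6-ON and Pax6-OFF cells. The share was 0.625% for Pax6-HIGH with Pax6-OFF and 0.438% for all 3 lines. The neuronal genes held 742 intervals in all, more than the genes of any other list. Of the 96, 72 were nearest to an interval of Pax6-HIGH cells alone, beside 7127 of the 21418 coding genes. The gene count is thus not particular to the shared sites. At promoters the share was 3.29% of the 487 sites, beside 0.872% of all promoter intervals and 2.00% of those of Pax6-HIGH cells alone. No test was made of any list, since the lists were drawn up with results of these data known.

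By the lower of both fold enrichments, the strongest neuronal site was at a gene for an RNA-binding protein. *Elavl2*, which stabilizes neuronal transcripts, had promoter sites at 91037833 to 91038904 and 91043070 to 91043585 on chromosome 4. The second had fold enrichments of 8.49 in Pax6-HIGH and 10.7 in Pax6-ON cells and the first 4.43 and 5.73. The promoter of *Nova1*, a neuronal splicing regulator, had 6.32 and 6.85. Among genes of the synapse, the promoter of *Syt1*, the calcium sensor of vesicle release, had 5.05 and 9.25.

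Adhesion and guidance genes of the list also had sites. The promoter of *Efna5*, an ephrin ligand, had fold enrichments of 6.09 in Pax6-HIGH and 6.39 in Pax6-ON cells, and that of its receptor family member *Epha7* 4.41 and 5.79 at the stronger of its pair of sites. The adhesion molecule *Cadm2* had 4.98 and 8.28, and *Ctnna2*, a neural catenin, 7.38 and 3.95, with pileups of 646 and 59 fragments. *Ctnna2* and *Iapp* lie on chromosome 6, which had the most intervals of any chromosome, 4529, beside 2804 on chromosome 1. Intervals with a Pax6-ON peak numbered 648 and 742 on these chromosomes. *Plxna2*, a semaphorin co-receptor, had 3 sites away from promoters, of which the strongest had 6.25 and 5.52. Its promoter was open in all 3 lines. The channel genes were *Scn2a1*, with 5.37 and 6.52 in an intron, and *Cacna2d1*, with 4.44 and 4.68 at its promoter. *Mtap2*, which encodes a dendritic microtubule protein, had 9.12 and 6.46 in an intron and 6.95 and 5.54 at its promoter. Further neuronal genes with a site were *Auts2*, *Cntnap2*, *Elavl4*, *Ncam2*, *Ptprd*, *Robo2*, *Sema3a* and *Zeb2*, with a lower value of 2.58 to 3.95 at the stronger site of each.

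Islet genes were fewer. Of 24 islet transcription factor genes, 3 (12.5%) were nearest to a site, *Isl1*, *Nkx6-1* and *Pax6*, and of 37 genes of islet function 5 (13.5%). The *Isl1* promoter, of a LIM-homeodomain factor of islets and neurons, had fold enrichments of 6.17 in Pax6-HIGH and 7.45 in Pax6-ON cells. The *Nkx6-1* promoter, of a homeodomain factor of beta cells and motor neuron progenitors, had 7.02 and 3.95. The function genes concern hormone processing and secretion. *Pcsk2*, which cleaves prohormones, had 5.22 and 6.87 at its promoter, and *Scg2*, a granin of dense core vesicles, 5.21 and 4.28. *Syt7*, a calcium sensor of secretion, had 5.56 and 2.90 at its promoter, and *Pam*, which amidates peptides, 6.0 and 3.82 in an intron. The *Pam* promoter was open in all 3 lines. The *Iapp* site lay 8712 bp upstream of the start site of this amylin gene, in an intron of *Slco1a5*, with 6.86 and 6.13. It was the only interval of any line nearest to *Iapp*. The islet factor list took 0.521% of the shared sites, beside 0.296% of all intervals and 1.10% of those of Pax6-ON and Pax6-OFF cells. The islet function list also took 5 sites (0.521%), beside 0.265% of all intervals. Its share was 0.317% in Pax6-HIGH cells alone and 0.350% in Pax6-ON cells alone.

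Eye genes were nearest to 6 sites (0.626%, beside 0.463% of all intervals) and were 4 of 55 (7.27%). With equal peak numbers, or with peaks overlapping by 50% of both, they were 2. The interval share was 0.553% in Pax6-HIGH cells alone and 0.508% in Pax6-ON cells alone. Of the 6 sites, 3 were nearest to *Pax6*, the gene by which the lines were compared, so those do not speak for eye genes at large. Besides *Pax6*, the eye genes with a site were *Prox1*, *Meis2* and *Dach1*. The promoter of *Prox1*, a homeodomain factor of lens fiber differentiation, had the weakest values, of 2.63 in Pax6-HIGH and 2.31 in Pax6-ON cells. *Meis2*, a TALE homeodomain factor, had 3.48 and 2.77 at a promoter site centered 1226 bp upstream of its start site. Of that pair, only the Pax6-HIGH peak reached within 1000 bp of the start site. *Dach1*, a retinal determination factor, had 5.39 and 3.89 at a site 420307 bp upstream. Of 46 kidney genes, 4 (8.70%) were nearest to a site, with 0.417% of the sites, beside 0.334% of all intervals. *Irx2* and *Irx3*, homeodomain factors of the nephron that also pattern the nervous system, had promoter sites with 6.13 and 5.01, and with 4.58 and 4.83. *Cubn*, a tubular endocytic receptor, had 4.73 and 3.03, and *Epcam*, an epithelial adhesion molecule, 2.81 and 3.36. None of the 28 broadly expressed genes and none of 14 genes around the neuronal repressor REST, which were its gene, its chromatin partners and neuroendocrine transcription factors, was nearest to a site. These lists took 0.115% and 0.112% of all intervals, so few sites would fall to them, and with equal peak numbers 1 broadly expressed gene had a site. Of the 9 genes of the *Pax* family, *Pax6* was the one with sites.

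**Figure D4:**
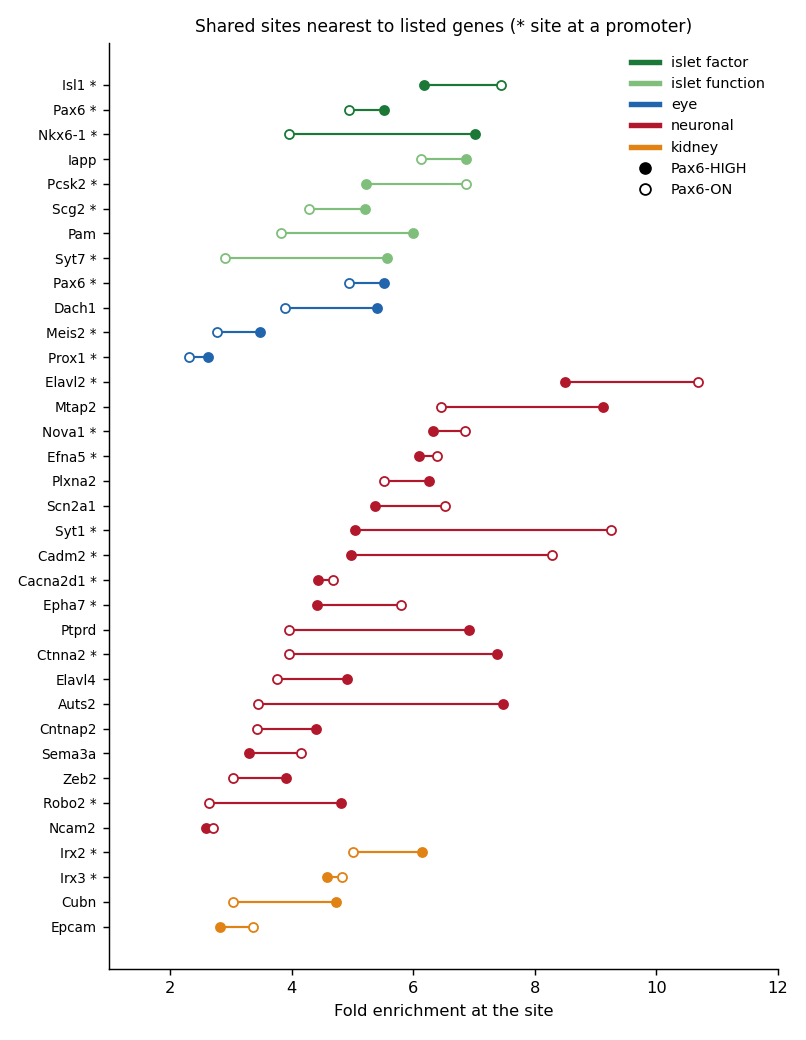
Fold enrichment (horizontal axis) in Pax6-HIGH (filled) and Pax6-ON cells (open) at the strongest shared site of each listed gene that is reported, with the lists in colors and an asterisk for sites at a promoter. Values are single pooled calls. They run from 2.31 at *Prox1* to 10.7 at *Elavl2*, and *Pax6* is drawn in both lists that hold it.

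The strongest sites were mostly outside the lists. By the lower of both fold enrichments, the promoter sites led with *Plcb4*, a phospholipase C, at 11.0 in Pax6-HIGH and 11.5 in Pax6-ON cells, at the tandem repeat printed above. The promoter of *Macrod2*, an ADP-ribosyl hydrolase, had 8.53 and 12.3, and that of *Wdr17*, a WD repeat protein of unknown function, 8.38 and 10.7. *Elavl2* ranked between them. Next came *Ankrd5* with 8.29 and 10.2, *Mmd* with 8.11 and 10.6, *2610008E11Rik* with 8.42 and 8.11, the zinc finger gene *Zfp708* with 8.06 and 12.2, *Mtap9*, a microtubule protein, with 7.96 and 10.3, and *Cstf2t*, a polyadenylation factor that lies within *Prkg1*, with 8.22 and 7.84. Zinc finger genes named *Zfp* were nearest to 28 sites (2.92%), beside 1.77% of all intervals and 3.29% of those of all 3 lines. Members of this family have near-identical copies, so reads may be placed on the wrong one.

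Away from promoters the highest value, of 17.4 in Pax6-HIGH and 12.3 in Pax6-ON cells, was at an interval near *Rps2-ps5* whose 50 bp at the summit occurred 674 times in the reference genome. The value of 13.8 and 7.64 in an intron of *D5Ertd579e* was at a repeat with a period of 33 bp, and that near *Bmp10*, with 7.45 and 7.18, at one of 18 bp. Sites with a unique summit followed at 9.77 and 9.16, 220796 bp downstream of a start site of *Mef2c*, a MADS-box factor of muscle and neurons. A further one had 8.48 and 12.3, 734937 bp upstream of *Fam92a*. Others were near *Gm5590* (7.66 and 8.24), *Gm17618* (7.66 and 9.46), *Hlf*, a PAR bZIP factor (7.46 and 8.90), and *Zfp930* (7.71 and 7.18), and in the *Mtap2* intron.

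*Mef2c* had 6 sites, the most of any gene after *Gm15319*. The promoter site at 83662596 to 83663530 on chromosome 13 had fold enrichments of 3.36 in Pax6-HIGH and 5.01 in Pax6-ON cells. Downstream of it, 4 sites lay between 83854562 and 83885206, 190943 to 220796 bp from the start site, and a further one lay 610998 bp upstream. The Pax6-OFF peak nearest to any of the 6 was 476291 bp away. *Plcb4* had 3 sites, of which those besides the repeat had 4.50 and 6.26, and 3.66 and 4.02.

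The other genes with the most sites had sites at repeated summit sequences. *Gm15319* had 7 sites on chromosome 8 between 19862957 and 19996032, with fold enrichments of 1.69 to 2.36 in Pax6-HIGH and 1.80 to 2.73 in Pax6-ON cells, and at 6 of them the summit sequence occurred more than once. *Gm13145* had 5 and *Zfp600* 4 in a stretch of 4.5 Mb of chromosome 4 with many near-identical genes, and 2 and 3 of these sites had a repeated summit sequence. This stretch held 34 shared sites, from 144783978 to 147965824, 19 with a repeated summit sequence, among 295 intervals of which 199 were of Pax6-ON cells alone. Chromosome 4 had the highest share of shared sites, 142 of 2351 intervals (6.04%), and 108 of 2056 (5.25%) outside the stretch. The lowest share was 1.18% on chromosome 12. Over all 959 sites, 85 (8.86%) had a repeated summit sequence, beside 10.2% of all intervals. Without these, 54.9% of 874 sites were at promoters.

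Promoter sites were rich in GC, with a median of 66.7% in the 300 bp at the summit, the same median as at promoter intervals of all 3 lines. Their ratio of observed to expected CpG was 0.780, beside 0.847 in all 3 lines and 0.857 in Pax6-HIGH and Pax6-OFF cells. Away from promoters the medians were 50.2% GC and a CpG ratio of 0.258, beside 49.0% and 0.210 over all such intervals. These are descriptions with no test.

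The shares of promoters with given motif letters are descriptions, with no test of the differences between classes. The ETS letters (CCGGAAG) were present at 9.65% of the 487 promoter sites (95% Wilson interval 7.34% to 12.6%), beside 16.1% of all promoter intervals, 19.7% of those of Pax6-HIGH and Pax6-OFF cells and 19.04% of those of all 3 lines. It was 12.9% in Pax6-HIGH cells alone, 9.22% in Pax6-ON and Pax6-OFF cells and 3.55% in Pax6-ON cells alone. The YY1 letters (AAGATGGCG) were at 0.616% (0.210% to 1.80%), beside 4.79% and 2.69% in those classes, 2.45% in Pax6-HIGH cells alone, 0.709% in Pax6-ON and Pax6-OFF cells and none of the promoter intervals of Pax6-ON cells alone. NRF1 letters (CGCATGCGC) were at 2.26% beside 4.56% and 4.48%, and beside 0.323% to 1.42% in the other 3 classes. ETS factors, YY1 and NRF1 are known for binding promoters of genes with housekeeping roles. SP/KLF boxes (GGGGCGGG) were at 34.3% of the promoter sites, beside 34.4% of all promoter intervals, and NF-Y boxes (AGCCAAT) at 10.1% beside 11.4%.

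Away from promoters, AP-1 letters (TGANTCA) were the most frequent, at 144 of 472 sites (30.5%, interval 26.5% to 34.8%). The share was 24.5% over all such intervals, 16.8% in Pax6-HIGH cells alone, 58.1% in Pax6-ON cells alone and 57.6% in the Pax6-ON and Pax6-OFF class. AP-1 is a dimer of Fos and Jun proteins that is active in growing epithelial cells. The TEAD letters (ACATTCC) were at 4.66%, beside 5.52% over all such intervals, 4.10% in Pax6-HIGH cells alone and 11.4% in Pax6-ON cells alone. The RUNX letters (TGTGGTT) were at 5.72%, beside 7.53%, 5.89% and 14.5%. The NEUROD E-box (CAGATGG) was at 9.11%, beside 10.9% over all such intervals, 13.9% in Pax6-HIGH cells alone and 7.08% in Pax6-ON cells alone. Forkhead letters (TGTTTAC) were at 5.51%, beside 7.34%, 9.82% and 4.65%. The CTCF core was at 20 sites (4.24%, interval 2.76% to 6.45%), beside 2.43% over all such intervals. Its share was 3.11% in Pax6-HIGH cells alone and 1.06% in Pax6-ON cells alone. The homeodomain core (TAATTA) was at 4.66%, beside 6.39%. The MAF letters (TGCTGAC) were at 8.90%, beside 10.9%.

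The paired core of PAX6 was in none of the 959 windows and in 11 of 34742 over all intervals, and the REST element was in none of the 34742. This says only that these letters are not in the windows. The NFI palindrome was in 10 windows, SOX letters (CATTGTT) in 21, GATA letters (AGATAAG) in 22 and RFX letters (GTTGCCANG) in 27, with shares of 1.04% to 2.82% beside 0.935% to 3.34% over all intervals.

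**Figure D5:**
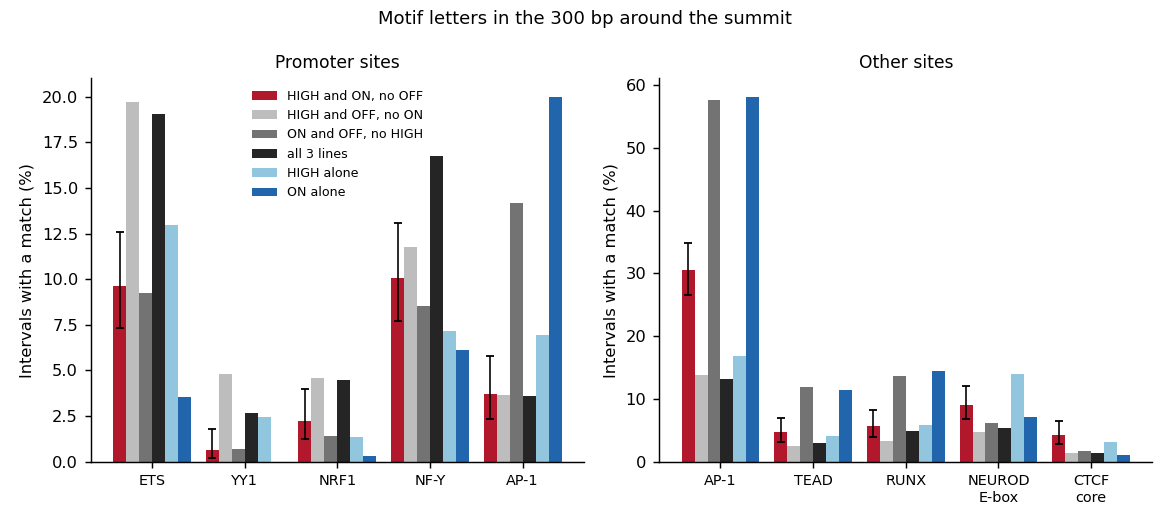
Share of intervals (percent, vertical axis) whose 300 bp at the summit hold the letters of a motif, at promoters (left) and elsewhere (right), for the shared sites (red, with 95% Wilson intervals) and 5 other classes. Bars are single shares. At promoters the shared sites have fewer ETS matches (9.65%) than the classes of Pax6-HIGH and Pax6-OFF (19.7%) and of all 3 lines (19.04%) beside 9.22% for Pax6-ON and Pax6-OFF, and elsewhere AP-1 (30.5%) lies between Pax6-HIGH alone (16.8%) and Pax6-ON alone (58.1%).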

How the data were processed

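Open chromatin was measured by ATAC-seq in duplicate in Beta-TC3 (Pax6-HIGH), MV+ (Pax6-ON) and RAG (Pax6-OFF) cells, and groups were taken from the cell line in the labels. Per the labels, the authors' processing used Trim Galore 0.4.1, Bowtie2 2.2.6, SAMtools 1.6 and MACS2 2.1.1 with mm9. Per the file headers, 1 call was made per line on both replicates, with whole fragments, all duplicates kept, no control and a q-value cut of 0.05. No shift to the Tn5 cut site is given in the headers, which can widen peaks. The deposited pileup, a signal, counts fragments at the summit and is not scaled for depth. The authors' fold enrichment is the ratio of pileup to the background around the peak, and the authors' p- and q-values are given as −log10 values. A line is compared by the presence of calls, so a site without a Pax6-OFF peak may hold signal under the threshold.

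Peaks were merged at an overlap of 1 bp. Intervals with Pax6-HIGH and Pax6-ON peaks and none of Pax6-OFF were compared with the 6 other classes. Start sites came from GENCODE M1 on NCBIM37, the assembly of mm9. Analysis used Python 3.11.15, pandas 2.3.3, SciPy 1.17.1 and pysam 0.24.0. Promoter shares were compared by Fisher's exact test, adjusted after Benjamini and Hochberg, and the functions were tested on simulated peaks. Motifs (20) were searched on both strands in 300 bp at the summit of the Pax6-HIGH peak, or else of the strongest peak. Matches to different motifs can overlap. A summit was called repeated when its 50 bp occurred more than once in the reference on either strand.

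Named sites were those at *Pax6*, the 10 promoter and 10 other sites with the highest lower fold enrichment, sites of listed genes (the 12 strongest genes per list), the 5 genes with most sites, ties broken by fold enrichment, and sites at the limits of the rule. The sites and lists were chosen with earlier results of these data known. *Sytl4*, *Sox1*, *Dach2*, *L1cam*, *Syp*, *Hprt* and *Pgk1* were not matched, and results for some listed genes are not reported here. Alternatives were stricter q-values, equal peak numbers, larger overlaps, merging within 500 bp, other promoter windows and start sites, a 200 bp motif window, and leaving out chromosome 6, a stretch of chromosome 4 or repeated summits, the last pair chosen after seeing the data. A second listing of the same peaks was not used here.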

Additional observations from a re-analysis of the deposited data

Results flagged for a closer look

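Chromosome X was outside the rule, which covered chromosomes 1 to 19. It held 37 intervals with a Pax6-HIGH and a Pax6-ON peak and no Pax6-OFF peak, 4.38% of its 844 intervals, beside 2.76% on the other chromosomes. There is no control library to set this count against, and the difference was not tested.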

How the results depend on the processing

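No paired analysis was possible because the deposited calls pool both replicates of each line, and for the same reason no replicate could be left out. The direction and the significance of all 6 promoter share differences held under each of the 11 alternatives that recomputed them, with a highest adjusted p of 4.75e-14 for the class of Pax6-HIGH and Pax6-OFF cells (Fisher's exact test), where the difference ran from -24.6 to -14.9 points. With an equal number of peaks per line, there were 610 sites, 465 of them overlapping a reported site, with a promoter share of 69.7%. With peaks overlapping by 50% of both, 607 sites were left. The promoter share was 54.1% with a window of 2500 bp, 54.4% with start sites of all gene types and 54.9% without repeated summits, a check chosen after seeing the data. The share of AP-1 letters away from promoters was 25.8% in 200 bp. A q-value under 0.001 in both expressing lines left 909 sites, and applied to all 3 lines it gave 924, of which 15 were not among those reported. Genes of the islet, eye and neuronal lists with a site ranged from 25 to 33, and those of the eye list from 2 to 4. Calls stop at 25 fragments at the summit in Pax6-HIGH and Pax6-OFF cells and at 30 in Pax6-ON cells, so weaker open sites were not detectable at this depth. Pooled calls give no measure of the spread between cultures, and a site with a weak or near-threshold Pax6-OFF signal counts as absent.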
